A study of Mus musculus with 458 samples.

Results

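Multilineage-reconstituting haematopoietic stem cells (MUL HSCs) are donor HSCs recovered from mice in which 1 transplanted cell had replenished all blood lineages. They were the cells whose recorded status was Balanced, which the labels call MUL HSC: 163 of 458 cells, 78 from MUL mouse 1 and 85 from MUL mouse 2. Each library was 1 cell from the bone marrow of a C57BL/6 mouse, index sorted in the LSK CD150+CD48-CD45.2+ gate, where CD45.2 marks donor cells. Every mouse had received 1 HSC positive for Vwf, and its lineages were followed for 16 weeks. In the comparison mice the transplanted cell had yielded either platelets, erythroid and myeloid cells (PEM, mice with 93 and 25 cells) or platelets with no other lineage (PLT, 93 and 84 cells).

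All groups thus share the strain, the sort, the Vwf-positive origin and the transplantation, and the ages of the mice are not given in the sources used here. All cells of a mouse descend from 1 cell, so each mouse is 1 clone and 2 clones stand for the MUL class. Read from the first part of the mouse names, the MUL mice belonged to the same experiment and the 4 others to 4 further ones, so experiment and group cannot be told apart in any comparison below. The recorded sex, not stated to be that of donor or recipient, was male for both MUL mice, PEM mouse 1 and PLT mouse 1 and female for the other 2.

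HSCs are rare marrow cells that divide seldom, renew themselves and give rise to every blood lineage. They are held in this state by transcription factors such as Meis1, Gata2, Hlf and Mecom and by cytokine receptors such as Kit. Many HSCs also transcribe low levels of genes of several lineages, which is called lineage priming, and HSCs that express Vwf, the gene of a platelet adhesion protein, are known for a bias towards platelets.

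The MUL cells had medians of 4.51 and 5.08 M mapped reads in mice 1 and 2 (range 1.30 to 9.62 M), and medians of 2209.5 and 2553 detected genes. The other mice had medians of 1869 to 3186 detected genes, so the MUL mice lay within their range. Values are RPKM, which divide the reads of a gene by its length and by the total of the cell, and a gene is called expressed in a cell at 1 RPKM or more. In MUL cells 1 RPKM stood for a median of 8.92 reads. Within each MUL mouse, cells with more mapped reads had fewer detected genes (Spearman correlation -0.60 over 78 cells and -0.41 over 85). Even Gapdh, a glycolytic enzyme gene, was expressed in only 61.5% and 69.4% of the MUL cells, and it was above 0 in 82.1% and 94.1%. Whether its RNA was missed or scarce in the remaining cells was not tested. For a gene at 1 RPKM in 0 of 78 or 0 of 85 cells, a limit of 3 counts of the total allows shares of such cells of up to 3.85% or 3.53%, for counting error only.

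A set of 4 genes served as markers of the class. Ctla2b encodes a cysteine protease inhibitor, Cd34 a sialomucin of stem and progenitor surfaces, Cd27 a receptor of the TNF receptor family, and Gna15 the alpha subunit of a G protein found mainly in blood cells. Ctla2b lies on chromosome 13 from 60895350 to 60897447 (minus strand), Cd34 on chromosome 1 from 194938819 to 194961279 (plus), Cd27 on chromosome 6 from 125232622 to 125237010 (minus) and Gna15 on chromosome 10 from 81502306 to 81524225 (minus, mm10). Cd27 overlaps Vamp1 and Cd34 overlaps the predicted gene Gm16897, each on the opposite strand. The kit does not mark strand, so reads of Cd27 and Vamp1, or of Cd34 and Gm16897, cannot be told apart where they overlap. Ctla2b overlaps the predicted genes Gm49391, Gm49392 and Gm49393 on its own strand.

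Ctla2b and its neighbour Ctla2a (chromosome 13, 60934155 to 60936625, minus strand, mm10), which encodes a related inhibitor, varied together over MUL cells, and Ctla2a was the gene most correlated with Ctla2b. Their promoters are shown for this reason and because they have nearly the same sequence. Each sequence is RefSeq's on GRCm38.p6, runs from 250 bases before to 50 bases after the start of transcription on the minus strand, and has the letters TGACGT in capitals, a core of cyclic AMP response elements.

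Ctla2b, chr13:60897398-60897697: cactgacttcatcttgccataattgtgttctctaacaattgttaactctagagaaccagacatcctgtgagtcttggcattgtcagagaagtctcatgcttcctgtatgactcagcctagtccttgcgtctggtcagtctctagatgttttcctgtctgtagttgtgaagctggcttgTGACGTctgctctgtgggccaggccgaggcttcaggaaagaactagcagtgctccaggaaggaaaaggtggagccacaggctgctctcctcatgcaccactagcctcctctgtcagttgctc
Ctla2a, chr13:60936576-60936875: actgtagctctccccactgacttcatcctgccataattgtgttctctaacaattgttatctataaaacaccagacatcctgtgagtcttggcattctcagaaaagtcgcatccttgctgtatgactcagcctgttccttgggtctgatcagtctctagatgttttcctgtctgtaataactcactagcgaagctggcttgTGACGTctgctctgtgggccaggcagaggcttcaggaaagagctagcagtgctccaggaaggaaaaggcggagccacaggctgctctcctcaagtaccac

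The promoters were identical at 257 of 278 aligned bases (92.4%) and the transcripts at 78.8% of 1086 aligned bases. The transcripts aligned had unlike lengths (1373 bases for Ctla2a and 1094 for Ctla2b), so the values are not like for like. The motif, searched on both strands with no other motif considered, occurred 1 time in each window and in 7.51% of 32851 promoters of this length. The match is a description of the letters and no measure of binding. Ctla2a had a further start that is not shown. The start shown was picked because its promoter matched that of Ctla2b best, so the 92.4% is the higher of the possible values. Over cells, the levels of Ctla2a and Ctla2b had Spearman correlations of 0.67 in MUL mouse 1 and 0.59 in MUL mouse 2. Reads of such paralogs can be assigned to either gene where they match both. The predicted genes Gm49391 and Gm49393 overlap both Ctla2a and Ctla2b on the same strand.

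Ctla2b was expressed in 63 of 78 cells of MUL mouse 1 (80.8%, 95% interval 70.3 to 88.8) and in 82 of 85 cells of MUL mouse 2 (96.5%, 90 to 99.3). These and later intervals are exact Clopper-Pearson intervals and cover counting error only. Levels within a mouse were wide: expressing cells had medians of 112 and 295 RPKM, and the highest cells reached 2827 and 2323. At 50 RPKM or more it was seen in 43.6% and 70.6% of the cells. Shares of expressing cells were 71% and 72% for PEM and 15.1% and 31% for PLT. Averaged over all cells, MUL mice had 362 and 455 RPKM, PEM mice 78 and 85.7, and PLT mice 23.8 and 16.3. Both MUL means lay above all others, and PEM lay between MUL and PLT. On the scale of log2(mean RPKM + 1), MUL minus the mean of PEM and PLT was 3.29 with a standard error of 0.33, which missed the threshold of 0.05 after adjustment over 11337 genes (limma, adjusted p = 0.0742).

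Ctla2a was expressed in 91% and 100% of MUL cells, with means of 286 and 517 RPKM. PEM mice averaged 162 and 154 RPKM, and PLT mice 13.7 and 79.6. The groups did not overlap, in the same order as for Ctla2b (log2 difference 2.38, limma, adjusted p = 0.724).

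Cd34 RNA was found in a minority of MUL cells, at a high level where present. It was expressed in 22 of 78 cells (28.2%, 18.6 to 39.5) and 35 of 85 cells (41.2%, 30.6 to 52.4), with medians of 334 and 247 RPKM in those cells. Mean levels were 95.6 and 121 RPKM for MUL, 36.9 and 28.5 for PEM, and 1.48 and 13.4 for PLT. The MUL means were the highest and did not overlap the others (log2 difference 2.94, limma, adjusted p = 0.656). Of PEM cells 20.4% and 16% expressed it, and of PLT cells 1.08% and 7.14%.

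Cd27 was present in most MUL cells but at levels that differed by more than an order of magnitude. It was expressed in 66 of 78 cells (84.6%) and in all 85 cells (100%), with medians of 11.3 and 25.6 RPKM in expressing cells. A share of 34.6% and 45.9% of the cells had 50 RPKM or more. The means were 139 and 187 RPKM in MUL, 85.4 and 111 in PEM, and 22.7 and 0.542 in PLT (log2 difference 2.73, limma, adjusted p = 0.76). MUL again lay above all others, although 87.1% of the cells of PEM mouse 1 expressed Cd27 as well.

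Gna15 was expressed in 20 of 78 cells (25.6%, 16.4 to 36.8) and 19 of 85 cells (22.4%, 14 to 32.7). Its means of 72.1 and 47.2 RPKM overlapped the PEM means of 56.3 and 49.4. PLT mouse 1 had it at 0 and PLT mouse 2 at a mean of 2.87 RPKM, so this marker set MUL apart from PLT and not from PEM (log2 difference against both 2.53, limma, adjusted p = 0.724). Both PEM mice had shares of at least those of the MUL mice, 33.3% and 28%.

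**Figure D1:**
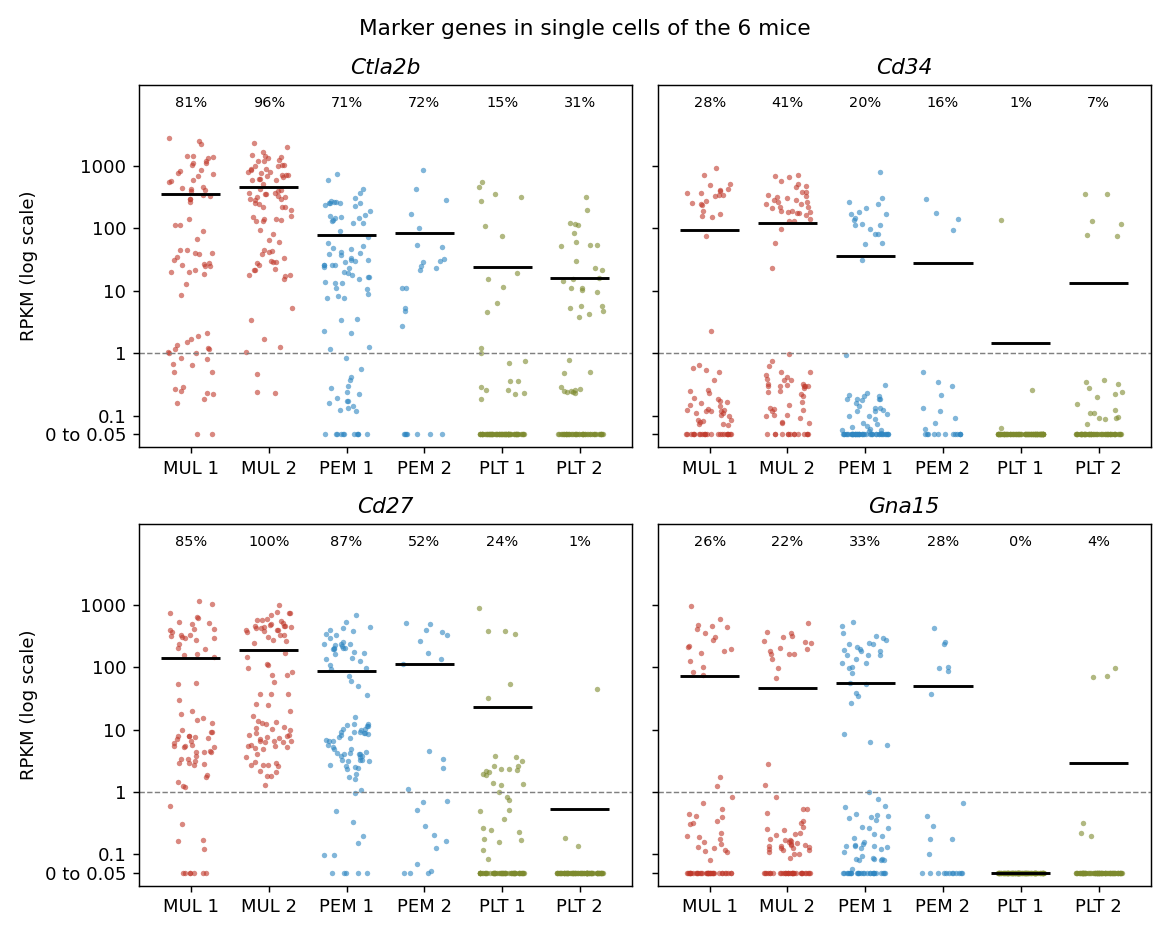
RPKM of the 4 marker genes in every cell (log scale, 1 point per cell, values from 0 to 0.05 drawn together at the bottom), by mouse. The black line is the mean of the mouse, the dashed line is 1 RPKM and the number above is the percent of cells at or above it; Ctla2b means were 362 and 455 RPKM in the MUL mice and 85.7 or less in the other 4.

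Against the label, Ctla2b, Cd34 and Cd27 set both MUL mice above all others, Gna15 did not, and no marker but Cd27 in mouse 2 was expressed in every cell. The markers were chosen with results of these mice known, so their levels are no independent check of the label. In MUL mouse 1, 3 cells expressed none of the 4 markers, 14 expressed 1, 33 expressed 2, 21 expressed 3 and 7 expressed all 4. In MUL mouse 2 the numbers were 0, 3, 36, 38 and 8. Most MUL cells thus had 2 or 3 markers. The counts of PEM mouse 1 were close to those of MUL mouse 1 (4, 21, 36, 24 and 8 of 93 cells), whereas 60 of 93 and 53 of 84 PLT cells had none. At 50 RPKM or more, 17 of 78 and 7 of 85 MUL cells had no marker and 2 and 4 cells had all 4.

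Markers were next counted in pairs. Cd34 and Gna15 were expressed together in 10 cells of MUL mouse 1, where the product of their shares gives 5.64, and in 8 cells of MUL mouse 2, where it gives 7.82. Ctla2b and Cd34 were together in 20 and 35 cells against products of 17.8 and 33.8. An excess over the product was thus seen for Cd34 and Gna15 in mouse 1 and not in mouse 2. Flt3, a receptor of lymphoid-primed progenitors, was expressed in few MUL cells, and these mostly had Cd34: 2 of 2 cells in mouse 1 and 6 of 7 in mouse 2, against products of 0.564 and 2.88. The genes most correlated with Cd34 over cells in both mice were Sash3, an adaptor of lymphocytes (Spearman correlation 0.39 and 0.33), Ufl1, Tmem170b and Impa1. For Cd27 they were Flt3l (0.27 and 0.33), Parp6, Dguok and Hmgcs1, and for Gna15 they were Arhgap1 (0.32 and 0.39), Msra, Nup50 and Mrpl50. After Ctla2a, Ctla2b was followed by Fcgrt (0.28 and 0.26), Zfp36 and Eif4g1. These are the highest of 5642 genes, in which the 99th percentile of all gene pairs was 0.32 and 0.29, and all points share the depth of their cell.

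Few genes were found in nearly every MUL cell. In both mice, 366 genes were expressed in at least 90% of the cells, 51 of them ribosomal protein or mitochondrial genes. A total of 1251 genes reached 50% in both mice, 5642 reached 10%, and 5854 were expressed in some cells of the MUL mice but in under 10% of each. Among the genes outside the ribosome and mitochondrion, B2m, the light chain of MHC class I, had the highest level at 7667 and 7056 RPKM. Actb followed at 6257 and 3707 RPKM, then Ftl1, the ferritin light chain (3005 and 3388), Calm2, a calmodulin gene (3072 and 2700), the histone gene H3f3b (3683 and 2685) and the chaperone gene Hspa8 (4217 and 2666). The 9 next, down to H2-K1 with 1542 and 2081 RPKM, held the ubiquitin gene Ubb, the elongation factor Eef1a1, the chromatin genes H2afz, Hmgn2 and Cbx3, Ppia, the superoxide dismutase Sod1 and Rplp0, a protein of the ribosomal stalk that the name rule left in. B2m varied little from cell to cell, with coefficients of variation of 0.388 and 0.473.

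Genes of HSC identity were present in MUL cells as a mosaic. Of 28 such genes, 0 were expressed in at least 90% of the cells of both mice, 7 in at least 50% and 20 in at least 10%, and a cell expressed a median of 8 and 11 of them. Lmo2, a cofactor of the stem cell transcription complex, was expressed in 75.6% and 95.3% of cells, and Meis1, a homeobox factor of HSC maintenance, in 71.8% and 82.4%. The cytokine receptor gene Kit was found in 51.3% and 75.3%. The transcription factors Hlf, Gata2 and Mecom were found in fewer cells, 23.1% and 48.2%, 28.2% and 52.9%, and 24.4% and 30.6%. Procr, the gene of the HSC surface receptor EPCR, was expressed in 21.8% and 24.7% of the cells. Gfi1 and Erg were expressed in no cell of mouse 1 and in 4.71% and 9.41% of mouse 2. Each of these shares was higher in mouse 2, whose cells had higher medians of both detected genes and mapped reads. The part of either in this was not tested.

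The genes behind the sort were checked next. Ly6a, which encodes Sca-1, was expressed in 53.8% and 71.8% of MUL cells, and Ptprc, the gene of CD45, in 35.9% and 51.8%. Cd48, whose protein was excluded by the gate, was expressed in 1 cell of each MUL mouse. Slamf1, the gene of CD150, whose protein was required, was expressed in 10.3% and 4.71% of MUL cells and in 37.6%, 24%, 21.5% and 17.9% of the cells of the PEM and PLT mice. Its means of 20 and 4.25 RPKM were below those of the other 4 mice, 65.8 and 41 (PEM) and 78.3 and 35 (PLT). The log2 difference of -2.34 did not pass (limma, adjusted p = 0.724). RNA and surface protein need not go together in a cell.

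Genes of 4 lineages were counted in single MUL cells. At least 1 gene of each of the megakaryocyte-platelet, erythroid, myeloid and lymphoid priming lists was expressed in 71 of 78 cells (91%, 82.4 to 96.3) and 78 of 85 cells (91.8%, 83.8 to 96.6). The shares in the other mice were 98.9% and 88% for PEM and 84.9% and 91.7% for PLT, around those of MUL. The erythroid condition was met by Car2 in every MUL cell, so the count was decided by the remaining 3 lists. Cells of MUL mice 1 and 2 that expressed no gene of the lymphoid priming list numbered 4 and 7. For the myeloid list they numbered 2 and 0, and for the megakaryocyte-platelet list 1 and 0.

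On the megakaryocyte-platelet side, the shares of cells ran from nearly all to none. Nfe2, a transcription factor of platelet formation, was expressed in 88.5% and 100% of MUL cells, the factor gene Fli1 in 85.9% and 82.4%, the cofactor gene Zfpm1 in 8.97% and 7.06%, and the tetraspanin genes Cd63 and Cd9 in 89.7% and 95.3% and in 62.8% and 69.4%. Vwf was expressed in 11.5% and 15.3% of cells, with medians of 16.1 and 58.3 RPKM in those cells. The means were 2.39 and 8.53 RPKM in MUL, 24.6 and 23.5 in PEM, and 18.4 and 15.1 in PLT, so that the MUL mice were the lowest although their clones came from Vwf-positive cells (log2 difference -1.89, limma, adjusted p = 0.756). Within MUL cells, Vwf went most with Slc14a1, a urea transporter gene, with Spearman correlations of 0.45 and 0.32. Pf4, a platelet chemokine gene, was expressed in 24.4% and 12.9% of MUL cells, and Gp5, a platelet glycoprotein gene, in 11.5% and 3.53%. Mmrn1, Ppbp and Clec1b, also genes of platelet granules and surface, were expressed in 0 of the 163 cells. Of 21 genes of the list that were tested, 0 lay above and 3 below all other mice, beside 8.55% above and 6.05% below among all 11337 genes tested, and their median log2 difference was -0.30 against 0.12 for all genes.

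On the erythroid side, Car2, a carbonic anhydrase gene of early erythroid and stem cells, was expressed in every MUL cell, with means of 1340 and 1752 RPKM. The erythroid factor genes Gfi1b, Gata1 and Klf1 were expressed in 32.1% and 11.8%, 10.3% and 10.6%, and 3.85% and 1.18% of cells. On the myeloid side, Csf3r, the receptor of granulocyte colony-stimulating factor, was expressed in 83.3% and 82.4% of cells at means of only 16.7 and 25.3 RPKM. Prtn3, a granule protease gene, was expressed in 62.8% and 88.2% of cells at 169 and 402 RPKM, and Sfpi1, the gene of PU.1, in 23.1% and 31.8%. The granule genes Mpo, Elane and Ctsg were seen in no MUL cell. Of 12 erythroid and 10 myeloid genes tested, 0 lay above or below all other mice, beside 8.55% and 6.05% of all genes.

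On the lymphoid side, shares were likewise uneven. Tcf4, a basic helix-loop-helix factor, was expressed in 60.3% and 64.7% of cells, Lsp1, which binds actin in leukocytes, in 38.5% and 48.2%, and the factor genes Bcl11a and Mef2c in 39.7% and 44.7% and in 32.1% and 34.1%. The Ikaros family genes Ikzf1 and Ikzf2 were expressed in 23.1% and 18.8% and in 19.2% and 22.4% of cells. Tcf3 and Notch1 were expressed in 6.41% and 12.9% and in 10.3% and 8.24% of cells, Flt3 in 2.56% and 8.24%, the chromatin organizer gene Satb1 in 1.28% and 1.18%, and Il7r, Rag1, Dntt and Ebf1 were seen in none. Of 12 tested genes, Tcf4 and Ikzf2 lay above and Il12a below all other mice, near the 8.55% and 6.05% of all genes. Tcf4 had means of 40.1 and 38.1 RPKM in MUL, 17.9 and 14.5 in PEM, and 33.5 and 12.2 in PLT (log2 difference 1.07, limma, adjusted p = 0.791).

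Set against the mean of PEM and PLT, 0 of 11337 genes passed in MUL (0.0%; limma on 6 mouse means, adjusted p threshold 0.05). Before adjustment, p was under 0.05 for 696 genes (390 higher in MUL, 306 lower), where 567 would be reached if no gene differed. Both MUL means were above all 4 others for 969 genes (8.55%) and below all 4 for 686 (6.05%). For a single value, the smallest two-sided p that exact permutation of 2 and 4 mice allows is 0.1333. The error behind each p is that between clones of a group, which for MUL includes no difference between experiments. The genes named next are those with the smallest p among the genes without overlap, and they describe these 6 clones.

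After Ctla2b, the genes with MUL above all others were led by Ccl3, a chemokine gene, and by genes that respond to signals within minutes to hours. Ccl3 had means of 28.4 and 22.4 RPKM in the MUL mice, from 7.69% and 10.6% of cells, and was listed at 0 in the other 4 mice (limma, adjusted p = 0.137). Genes were tested if their mean reached 1 RPKM in at least 2 mice, and Ccl3 met this only through the MUL mice. Its direction was thus fixed by the filter, and its p is no support for it. Tsc22d3, which encodes the glucocorticoid-induced leucine zipper, was expressed in 80.8% and 96.5% of MUL cells, at means of 446 and 984 RPKM. In the other mice its means were 154, 200, 121 and 63 RPKM (log2 difference 2.41, standard error 0.41, limma, adjusted p = 0.435). Dusp1, a phosphatase gene of the immediate early response, had 110 and 374 RPKM in MUL and 16.1 to 42.4 elsewhere. It overlaps Ergic1 on the opposite strand. Cd69, an early activation antigen of lymphocytes, had 47.9 and 41.2 RPKM against at most 5.41.

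Emcn, the gene of endomucin, a sialomucin shared by HSCs and endothelium, had 62.7 and 56.6 RPKM in MUL. It was expressed in 12.8% and 16.5% of MUL cells, was at 0 in every PEM cell and averaged 11.1 and 40.7 RPKM in PLT. Xlr4a, of an X-linked family, had 68.2 and 63.6 RPKM against 2.36 to 24.9, and Rnf135, an E3 ubiquitin ligase gene, 84.6 and 58.8 against 2.05 to 18.6. For Tcte2 the MUL means of 8.45 and 9.89 RPKM rested on 1 cell of each mouse, and for Tmem74 on 1.28% and 2.35% of the cells. Like Ccl3, both genes passed the filter only through the MUL mice, which fixed their direction.

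The genes with MUL below all others included metallothioneins and a secreted chaperone. Erdr1 averaged 3.29 and 0 RPKM in MUL, 91.6 and 175 in PEM, and 102 and 308 in PLT (log2 difference -6.19, standard error 0.70, limma, adjusted p = 0.0925). It was expressed in 1 of 78 and 0 of 85 MUL cells compared with 81.7% to 100% elsewhere. GENCODE M21 has no gene of that symbol, so no position is given. Of the 2 male mice outside MUL, PEM mouse 1 had 91.6 and PLT mouse 1 had 102 RPKM.

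Mt1, a metallothionein gene that binds zinc and copper, had 31.6 and 15.1 RPKM in MUL and 116 to 280 in the others (log2 difference -2.93, limma, adjusted p = 0.137). It was expressed in 16.7% and 18.8% of MUL cells against 48% to 95.2%. Mt2, its neighbour, was listed at 0 in both MUL mice and had 6.48 to 18.9 RPKM elsewhere. Clu, the gene of clusterin, had 9.64 and 8.14 RPKM against 32.1 to 99.2 (log2 difference -2.76, limma, adjusted p = 0.402). Plac8 had 84.7 and 95.2 RPKM against 217 to 352, Smim4 45.6 and 50.2 against 116 to 200.5, and Bola2 52.9 and 67.4 against 174 to 199. Bola2 overlaps Slx1b and Coro1a, both on the opposite strand. Ccne1, a cyclin of entry into S phase, had 1.65 and 0.163 RPKM against 15.2 to 68.2, and Rpl38, a ribosomal protein gene, 374 and 271 against 615 to 981.

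**Figure D2:**
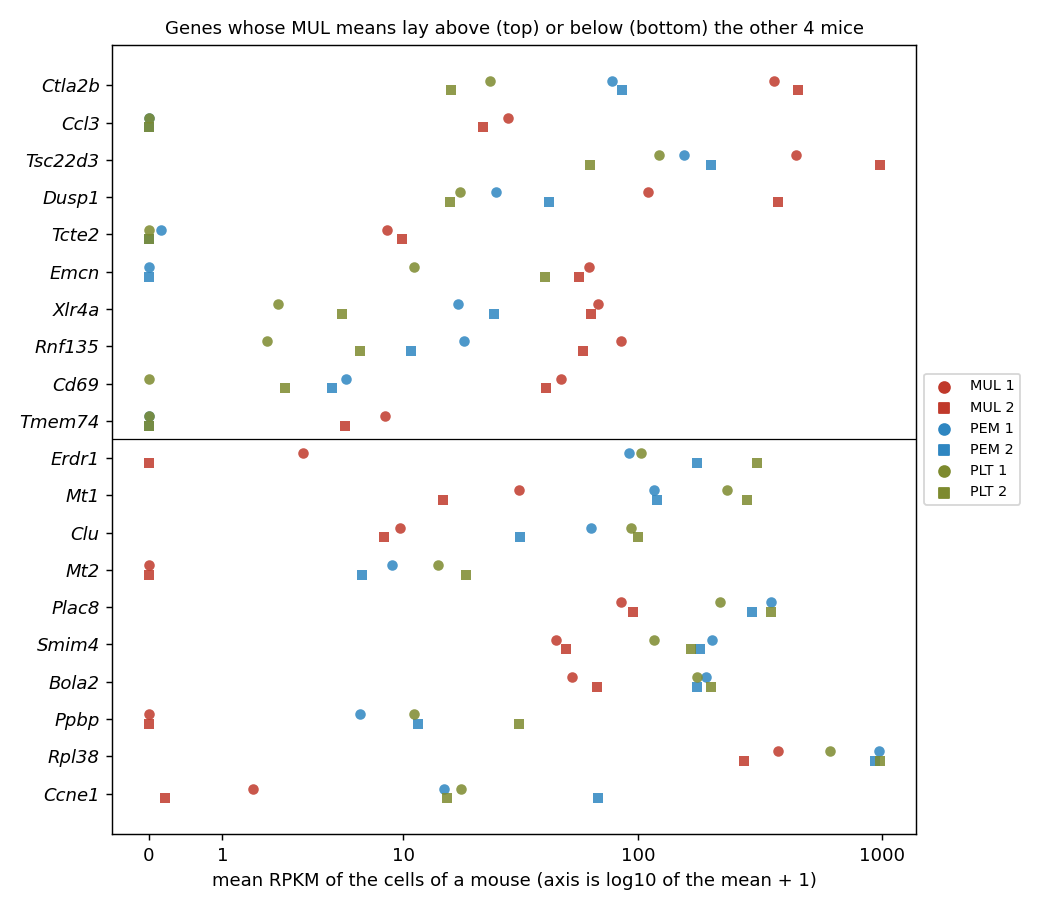
Mean RPKM of the cells of each mouse (log10 of the mean + 1, labelled in RPKM) for the 10 genes named above and the 10 named below the other mice. Colour marks the group and shape the mouse; both MUL points lie to the right of the other 4 in the upper rows and to their left in the lower rows, and 0 of these genes passed adjustment.

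Several lists of genes leaned to one side. Of 20 immediate early genes, which are switched on within minutes of a stimulus or of cell handling, 8 had both MUL means above all others and 0 below, beside 8.55% and 6.05% of all genes. Their median log2 difference was 1.08 against 0.12 for all genes. The 8 were Fos, Jun, Ier2, Dusp1, Zfp36, Klf6, Rhob and Ppp1r15a. Fos had 41.1 and 9.04 RPKM in MUL and at most 1.66 elsewhere, yet it was expressed in only 14.1% and 8.24% of MUL cells (limma, adjusted p = 0.533). Ier2 was expressed in 44.9% and 57.6% and Zfp36 in 17.9% and 24.7%. At least 3 of the 26 listed genes were expressed in 66.7% and 82.4% of MUL cells. In PEM the shares were 78.5% and 40% and in PLT 32.3% and 33.3%, so PEM mouse 1 lay between the MUL mice. Without MUL mouse 1 the number of genes above all others was 13. With fewer mice fewer means can overlap, so this number cannot be set beside the 8.55%. Over cells these genes hardly went together: the median correlation of pairs of the 9 that could be compared was 0.035 and 0.082, beside 0.029 and 0.019 for all gene pairs.

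Of 11 glucocorticoid and FoxO response genes tested, 5 lay above and 1 below all others, beside 8.55% and 6.05% of all genes. Their median log2 difference was 1.26 against 0.12 for all genes. Beside Tsc22d3 those above were Fkbp5, a chaperone of the glucocorticoid receptor, and Sgk1, a kinase gene. Ddit4, an inhibitor of mTOR signalling, and Pik3ip1, an inhibitor of PI3 kinase, also lay above. Pik3ip1 had 137 and 237 RPKM in MUL against 16.9 to 105 and was expressed in 44.9% and 72.9% of MUL cells. Sesn1, a stress-induced sestrin gene, was the 1 below, with 58.8 and 57.2 RPKM against 73.2 to 111. Fkbp5 averaged 14 and 12.4 RPKM in MUL, and Ddit4 was at about 1 RPKM. None of the 11 passed (limma, adjusted p of 0.435 or more). At least 3 of the 14 listed genes were expressed in 70.5% and 84.7% of MUL cells. In PEM the shares were 69.9% and 40% and in PLT 19.4% and 40.5%, so PEM mouse 1 was close to MUL mouse 1.

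Genes linked to the ageing of HSCs leaned the other way. Of 20 tested, 0 lay above and 7 below all others, beside 8.55% and 6.05% of all genes. Their median log2 difference was -1.29 against 0.12 for all genes. The 7 were Clu, Plscr2, Mt1, Mt2, Vwf, Neo1 and Cd38. Plscr2, a phospholipid scramblase gene, had 10.6 and 3.47 RPKM against 18.2 to 131, and Cd38, an NAD-consuming ectoenzyme gene, 29.9 and 26 against 37 to 86.5. Aldh1a1, which oxidises retinaldehyde, overlapped the other mice at 78.8 and 82.4 RPKM. Without MUL mouse 2 the number below was 12. With fewer mice fewer means can overlap, so this number cannot be set beside the 6.05%. The list was chosen with results of these mice known and is no independent evidence of its direction.

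Cytosolic ribosomal protein genes had lower means in MUL as a block. Of 76 tested, 50 had both MUL means below all others and 0 above, beside 6.05% and 8.55% of all genes. Their median log2 difference was -0.63 against 0.12 for all genes, and 0 passed adjustment. Their summed means were 54677 and 48655 RPKM in MUL, 89803 and 81601 in PEM, and 61410 and 84568 in PLT. Of these genes, 49 were expressed in at least 90% of the cells of both MUL mice. On the shares alone, on a logit scale, 3 of them lay below all others, and with log2 values averaged over cells 10 did. Of 74 oxidative phosphorylation genes of the nucleus, 2 lay above and 30 below, beside the same shares of all genes, with a median of -0.58. Their summed means were 17536 and 14770 RPKM in MUL and 20159 to 32586 in the others, and 9 lay below with log2 values averaged over cells. Cells with more detected genes had higher log2 levels averaged over the genes of either list (Spearman correlations of 0.54 to 0.70 in the MUL mice). With mapped reads the correlations were -0.17 to -0.41. The part of detected genes, of depth and of quantity of RNA per cell was not tested.

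The MUL mice were compared with each other. Over 9299 genes that averaged 1 RPKM or more in both, Spearman correlations were 0.87 for the means and 0.91 for the shares of expressing cells. The shares differed by a median of 3.92 points between the mice (78 and 85 cells). Between the plates of a mouse, read from the cells' titles, the medians were 4.65 and 4.72 points, but plates held only 35 to 45 cells, so the sampling error of a share was larger and the values cannot be set against each other. Of these genes, 23 differed by over 30 points between the mice, a count that leaves out genes averaging under 1 RPKM in either mouse.

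Genes with a larger share in MUL mouse 1 were led by chaperones of the heat shock response. Hsph1 was expressed in 59% of the cells of mouse 1 and 11.8% of mouse 2, and Stip1, which couples the chaperones Hsp70 and Hsp90, in 71.8% and 36.5%. The inducible genes Hspa1b and Hspa1a were expressed in 32.1% and 28.2% of the cells of mouse 1 and in none of mouse 2. The difference was present in both plates: Hsph1 was expressed in 60.5% and 57.1% of cells on the plates of mouse 1 and in 15.6% and 7.5% on those of mouse 2. The mean of Dnajb1, a gene picked from its values, was 312 RPKM in mouse 1 and 80.6 in mouse 2. PEM mouse 1 resembled MUL mouse 1, with Hsph1 in 57% of cells. Xlr, an X-linked gene, was expressed in 30.8% of the cells of mouse 1 at a mean of 222 RPKM and was listed at 0 in mouse 2, and Stxbp4, Sdhd and Taok2 completed the group.

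In MUL mouse 2 the largest excess was that of Sult1a1, a sulfotransferase gene, expressed in 89.4% of cells against 33.3% in mouse 1. This gene also differed between the plates of mouse 1, at 14% and 57.1%. Vill, a villin-like gene, was expressed in 51.8% of the cells of mouse 2 and in none of mouse 1, Nupr1, a stress-induced chromatin factor, in 87.1% against 48.7%, and Sp110, an interferon-induced nuclear body gene, in 71.8% against 34.6%. Wfdc17, an antiprotease gene of activated myeloid cells, was expressed in 43.5% against 6.41%, with 1 cell at 25310 RPKM. Mrpl36 (72.9% against 32.1%) overlaps Ndufs6 on the opposite strand, and Shkbp1 and Limd2 completed the group. With 1 clone each, a difference between these mice cannot be told apart from one between clones, recipients or sorts.

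**Figure D3:**
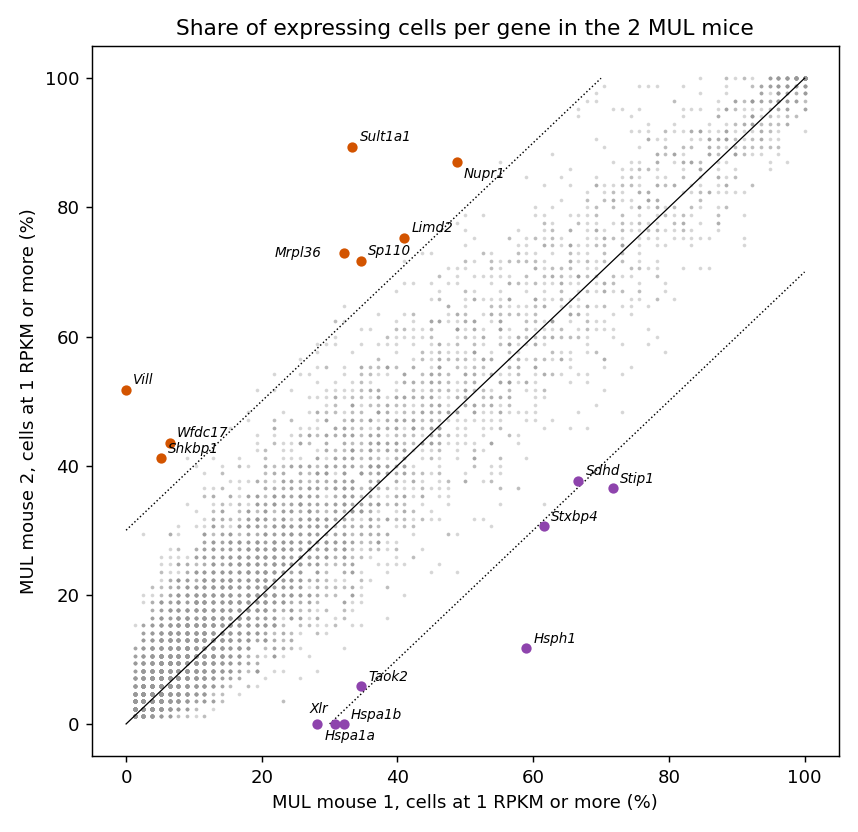
Percent of cells at 1 RPKM or more for each of 9299 genes averaging 1 RPKM or more in both mice (grey), MUL mouse 1 (78 cells) against MUL mouse 2 (85 cells). The solid line is equality and the dotted lines are 30 points away; most grey points lie between the dotted lines. The 8 genes furthest on each side are named, chosen over all genes, so that Xlr, Hspa1a, Hspa1b and Vill, at or near 0 in one mouse, are not among the grey points.

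Variability from cell to cell was measured as the squared coefficient of variation against a running median of genes of like mean, over 3905 genes that averaged 10 RPKM or more in both mice. The residuals of both mice had a Spearman correlation of 0.68, and 64 genes were among the 200 most variable of both (32% of each list). The highest ranks included erythroid genes. Beta-s, a beta globin gene, had coefficients of variation of 6.14 and 8.49. Hemgn, a nuclear protein of erythroid precursors, had 4.90 and 4.59, Fech, which makes haem, 3.69 and 5.06, and Ctse, a protease gene of the erythroid lineage, 5.10 and 4.79. Of the 15 genes named as most variable, 7 were zinc finger genes: Zfp958, Zfp934, Zfp758, Zfp944, Zfp932, Zfp51 and Zfp617. Such genes have close relatives, and how reads that match several were counted is not given in the sources used here. Zfp932 was expressed in 50% and 67.1% of cells. Cd24a, a surface marker of many immature blood cells, was expressed in 38.5% and 45.9%.

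The genes most uniform for their mean, ranked by the smallest residual, had low to moderate means. Abundant genes such as Actb, at 0.58 and 0.49, can have smaller coefficients of variation. H2-Q10, an MHC class I gene, had coefficients of variation of 0.611 and 0.515, followed by its relatives H2-Bl and H2-Q1, whose reads it can share, and by Oaz1, an inhibitor of polyamine synthesis. The markers of the class were not uniform: Ctla2b had 1.67 and 1.13, Cd34 1.96 and 1.51, Cd27 1.72 and 1.31, and Gna15 2.33 and 2.25. Over all 7941 genes compared, cells of MUL mouse 1 had a median Spearman correlation of 0.405 with each other and those of MUL mouse 2 of 0.40. Cells of different MUL mice had 0.388, and cells of MUL mouse 1 and PLT mouse 2 had 0.404. Within the other mice it was 0.431 and 0.374 (PEM) and 0.434 and 0.487 (PLT). By this measure cells of MUL mouse 1 were no less like those of PLT mouse 2 than those of MUL mouse 2.

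**Figure D4:**
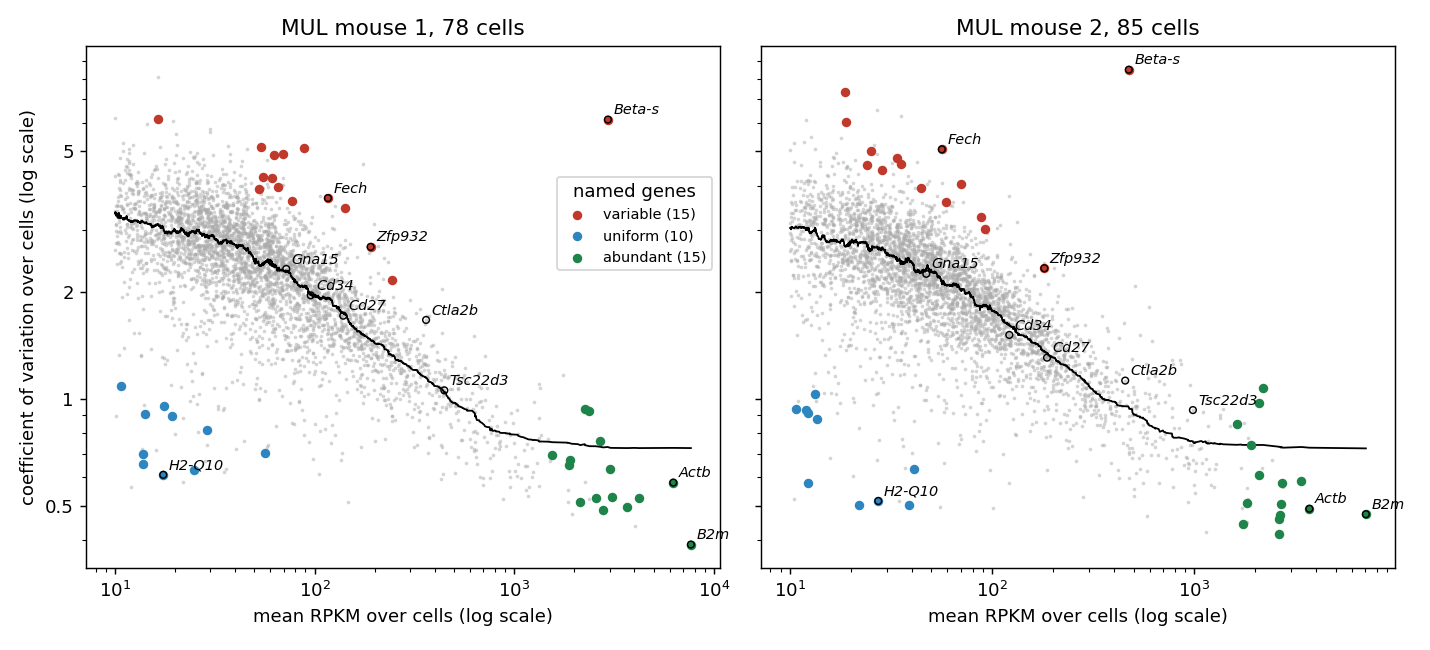
Coefficient of variation over cells against mean RPKM for 3905 genes (both axes on a log scale) in each MUL mouse, with the running median as a black line. Named genes are coloured by the rule that chose them; Beta-s lies far above the line at 6.14 and 8.49, and B2m lies below it at 0.388 and 0.473.

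A few MUL cells had RNA of red cell precursors or neutrophils. In 3 of 78 and 1 of 85 cells, Beta-s was at 1000 RPKM or more. The highest cell of each mouse held 145601 and 37116 RPKM, which was 63.4% and 92.1% of the summed Beta-s of its mouse. All 4 cells also expressed Alas2 and Fech, genes of haem synthesis, and Hemgn. Their Car2 levels had medians of 7624 and 7705 RPKM against 924 and 1368 in the remaining cells. S100a8, a gene abundant in neutrophils, reached 1000 RPKM in 1 cell of each mouse, at 4610 and 55347 RPKM. In MUL mouse 2 that cell held 99.3% of the summed S100a8. At least 3 markers of mature erythroid cells, neutrophils or macrophages were expressed in 5 of 78 and 4 of 85 MUL cells.

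Summed levels of markers of other cells were otherwise low, and the share of markers that were absent differed between cell types. The 12 neutrophil genes summed to 95.8 and 996 RPKM in MUL and to 33.8 to 15138 in the other mice, and the 11 macrophage and monocyte genes to 53.7 and 90.4 against 67.9 to 197. The 8 B cell genes summed to 35.9 and 36 RPKM against 26.3 to 331, and the 12 T and NK cell genes to 229 and 90.1 against 66.8 to 136. The 7 mast cell genes summed to 8.60 and 11.5 RPKM and the 8 endothelial and stromal genes to 4.84 and 3.17. Of the B cell genes 6 of 8 were expressed in no MUL cell, and of the T and NK cell genes 6 of 12. For mast cell genes this was 5 of 7, and for endothelial and stromal genes 6 of 8. It was only 2 of 12 for neutrophil genes and 1 of 11 for macrophage and monocyte genes. Those absent included Pax5, Cd3e, Cd4, Ltf, Mrc1, Mcpt8, Cdh5 and Kdr. Nkg7 was expressed in 38.5% and 16.5% of MUL cells and Ms4a6c in 30.8% and 31.8%. In both MUL mice, 0 cells expressed 3 or more genes of the lymphocyte, mast cell or endothelial lists. When cells with mature markers were left out of all mice, 3 genes passed in the comparison above in place of 0.

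Genes of the cell cycle were unevenly spread over MUL cells. Of 30 genes of the G2 and M phases, a cell expressed a median of 4 and 3, and the highest cells expressed 26 and 27. At least 3 were expressed in 75.6% and 81.2% of cells. With a limit chosen after seeing the data, at least 10 such genes were expressed in 14 of 78 cells (17.9%, 10.2 to 28.3) and 9 of 85 cells (10.6%, 4.96 to 19.2). Near this limit, 5 and 4 cells expressed 7 to 12 of the genes. The other mice ranged from 6.45% to 25%, around the MUL mice. At least 10 of 32 S phase genes were expressed in 18 and 14 cells, and 12 and 7 cells had both.

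In the cells with at least 10 G2-M genes, Mki67, a marker of dividing cells, was expressed in 10 of 14 and 8 of 9 cells, against 1 of 64 and 1 of 76 of the others. Top2a, which untangles DNA before mitosis, was expressed in 14 of 14 and 8 of 9, against 5 and 2 of the others. Mki67 is a member of the list that set the limit, as are Top2a and Cdk1, so these counts are a description. Genes outside the list were counted in the same cells. Ctla2b was expressed in 12 of 14 and 9 of 9 of these cells, Cd34 in 3 of 14 and 5 of 9, and Procr in 1 of 14 and 0 of 9. Among the other cells, Cd34 was expressed in 19 of 64 and 30 of 76 and Procr in 16 of 64 and 21 of 76. The cells with at least 10 G2-M genes had more detected genes, with medians of 2889.5 against 2127.5 and 3487 against 2470.5. Over all cells of a mouse, log2 levels averaged over the G2-M list had Spearman correlations of -0.41 and -0.25 with mapped reads. The part of detected genes or of depth was not tested. All 4 cells with high Beta-s were among the cells with at least 10 G2-M genes.

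Among the lists compared, those of the cell cycle had the highest median correlations over cells in both mice. Median correlations of pairs were 0.207 and 0.202 over 21 S phase genes and 0.223 and 0.221 over 16 G2-M genes. HSC identity genes had 0.068 and 0.040, ribosomal protein genes 0.075 and 0.167, and all gene pairs 0.029 and 0.019. Among cells with 1800 to 3000 detected genes the S phase and G2-M values, averaged over the mice, were 0.126 and 0.133, lower than over all cells. Mki67 went most with Nusap1, a spindle protein gene (0.44 and 0.54), then Ptp4a3, Txlna and Cdk1.

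Against the other mice, 4 of 32 S phase genes lay below and 1 above, beside 6.05% and 8.55% of all genes, with a median log2 difference of -0.54. Those below were Mcm2 and Mcm4, subunits of the replicative helicase, Rpa2, which coats single-stranded DNA, and Ccne1. Mcm4 had 25.2 and 26.8 RPKM in MUL against 52 to 89.8 (log2 difference -1.39, limma, adjusted p = 0.724). Without MUL mouse 1 the number below was 14 and without PLT mouse 1 it was 15. With fewer mice fewer means can overlap, so these numbers cannot be set beside the 6.05%. Of 29 G2-M genes, 2 (Aurkb and Smc4) lay above and 0 below, no larger a share than the 8.55% and 6.05% of all genes, with a median of 0.28. Among regulators of the G1 phase, Cdkn1b, an inhibitor of cyclin-dependent kinases, was expressed in 94.9% and 96.5% of MUL cells and Ccnd2 in 69.2% and 90.6%. Cdkn2d, another inhibitor, was the 1 of 10 tested that lay above all others, near the 8.55% of all genes, with 124 and 88.7 RPKM against 25.6 to 83.5 (log2 difference 1.18, limma, adjusted p = 0.76).

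**Figure D5:**
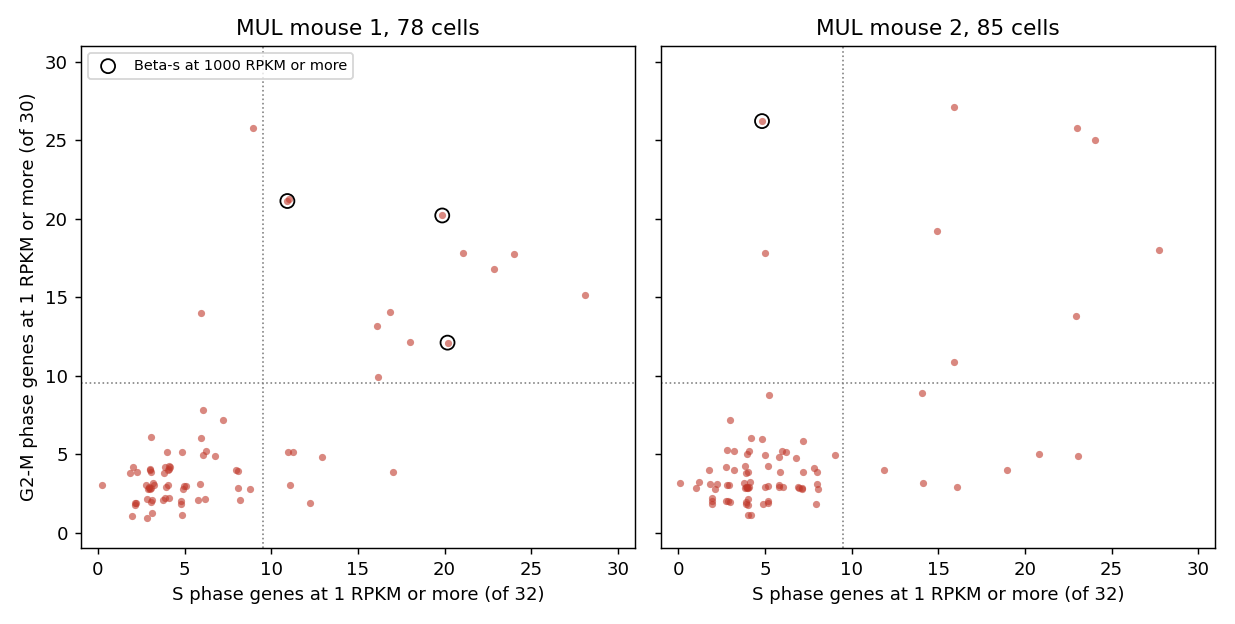
Number of S phase genes (of 32) and G2-M phase genes (of 30) at 1 RPKM or more in each MUL cell, 1 point per cell with a small random shift, by mouse. Dotted lines mark 10 genes; 12 cells of mouse 1 and 7 of mouse 2 lie beyond both, and the circled cells are the 4 with Beta-s at 1000 RPKM or more.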

How the data were processed

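Per the labels' protocols, libraries came from the SMARTer Ultra Low RNA kit. The deposited table holds RPKM values for 22645 genes, made by the authors. The submitters' processing notes name TopHat, featureCounts and mm10, and their versions are not given in the sources used here. A second deposited table gives the count of mapped reads and of detected genes and the percent of mitochondrial reads per cell, per the file headers. Of the RPKM values worth under 5.5 reads, 80.6% lay within 0.05 of a whole number of reads, too few for a count model.

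The prefix of a cell's title was taken as its mouse, and P1 or P2 as its plate. No cell was left out, no doublet caller was run, and 0 cells had identical values. The mouse was the replicate, and RPKM was averaged over its cells. Genes whose average reached 1 RPKM in 2 or more of the 6 mice were tested with limma 3.58.1 in R 4.3.3 on log2(mean RPKM + 1), a scale that understates the change of low genes. The fit held 1 mean per group, a trended variance (8.33 degrees of freedom in all) and Benjamini-Hochberg adjustment at 0.05. Other steps used Python 3.11.15, pandas 2.3.3, numpy 2.4.6 and scipy 1.17.1. Variability used a running median over 201 genes. Correlations over cells used genes expressed in at least 10% of the cells of both MUL mice, and correlations between cells used genes that averaged 10 RPKM or more in any mouse. The scripts were tested on simulated data.

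Members and gene lists were chosen with earlier results of these data known. Named genes were the markers and HSC identity and sort genes; the 15 most abundant; up to 10 without overlap per direction of the comparison, by p; the 15 most and 10 least variable; the 8 whose share differed most between the MUL mice in each direction; the 4 closest correlates of each marker, Vwf, Fos and Mki67; and up to 4 of each list. List members without overlap, and other list members that complete a lineage, are named beside these after their values were seen. Predicted genes are not described. Alternatives were other pseudocounts, filters, scalings, thresholds, plates, numbers of cells and the omission of each mouse. Some genes are not reported here.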

Additional observations from a re-analysis of the deposited data

How the results depend on the processing

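No paired analysis was possible because mice were numbered by accession and the numbers pair nothing. The number of genes passing in MUL minus the mean of PEM and PLT was 0 and was 0 without any 1 mouse. It was 1 with a pseudocount of 10, 18 without a filter, 2 with a mean of at least 5 RPKM, 5 on the logit of shares, 2 with quantile normalization, 1 on plate 1 alone and 3 without cells expressing mature cell genes, an alternative chosen after seeing the data. For 24 named genes, 445 of 445 gene and alternative pairs kept their direction and 13 passed. Most of these genes were chosen because both MUL means lay outside those of all other mice. A change of direction was thus unlikely from the start, and the count is no support for them.

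The counts of list members without overlap were run under the same alternatives, after seeing the data. The shares of all genes, 8.55% above and 6.05% below, are those of the main setting and can differ under each alternative. For ribosomal protein genes the 50 below became 10 with log2 values averaged over cells, 3 on the logit, 31 with quantile normalization and 29 with 25 cells per mouse (50 to 66 without 1 mouse). For oxidative phosphorylation the 30 became 9 and 8 under the former 2 and 17 on plate 2 alone (30 to 44). The 8 immediate early genes above became 5 on the logit (8 to 13). The 5 glucocorticoid and FoxO genes became 3 with a mean of at least 5 RPKM, with log2 values averaged, on the logit and with 25 cells (5 to 7). Without 1 mouse, ageing linked genes below numbered 7 to 12 and S phase genes 4 to 15; with fewer mice fewer means can overlap.

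The mean share of MUL cells expressing a marker was 59.9%, and 81.9% above 0, 52% at 5 RPKM and 38.1% at 50 RPKM (54.8% to 65% with 1 MUL mouse). The 366 genes in 90% of cells became 1100 above 0 and 162 at 5 RPKM. The 64 shared variable genes became 117 by the variance of log2 values. The cells with at least 3 G2-M genes, 78.4%, became 100% above 0, 26.7% at 5 RPKM, 96.3% for 2 genes, 32.5% for 5 and 14.3% for 10 (75.6% to 81.2% with 1 mouse).

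The S phase correlation of 0.205 was 0.126 in cells with 1800 to 3000 genes, 0.224 and 0.193 on plates 1 and 2, 0.279 as Pearson correlation of log2 values and 0.143 on residuals (0.202 to 0.207 with 1 mouse). The G2-M value of 0.222 was 0.133, 0.257, 0.207, 0.444 and 0.164 in the same order, and 0.187 without cells expressing mature cell genes (0.221 to 0.222). The immediate early value of 0.059 moved by less than the spread (0.035 to 0.082). The correlation between cells of 0.403 was 0.410 and 0.413 on plates 1 and 2 and 0.461 over genes averaging 1 RPKM or more (0.40 to 0.405). The cause of these shifts was not tested. A value of 1 RPKM stood for a median of 8.92 reads in MUL cells, and the part of depth was not tested.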

Other observations

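Genes of antigen presentation and of the interferon response were common in MUL cells. Of 15 antigen presentation genes, 5 were expressed in at least 90% of the cells of both mice, and a cell expressed a median of 10 in each. The classical class I genes H2-K1 and H2-D1 were expressed in 98.7% and 100% and in 100% of cells. Class II genes, better known from professional antigen-presenting cells, were common as well: H2-Ab1 was expressed in 82.1% and 77.6% of cells at means of 668 and 508 RPKM, H2-Aa in 57.7% and 36.5%, and Cd74, the invariant chain, in 70.5% and 56.5% at 366 and 162 RPKM. Ciita, their known activator, was expressed in 1.28% and 1.18%. Against the other mice, 1 of 15 genes lay below all others (Nlrc5) and 0 above, beside 6.05% and 8.55% of all genes.

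Of 22 interferon response genes, a cell expressed a median of 7 and 9. The transmembrane restriction factor genes Ifitm1, Ifitm2 and Ifitm3 were expressed in 96.2% to 100% of cells. Ifitm3 had means of 991 and 1171 RPKM in MUL and 1552 to 2060 in the other mice, all above both MUL values, and did not pass (limma, adjusted p = 0.756). Ifit1, a classical target of type I interferon, was expressed in 2.56% of the cells of mouse 1 and 20% of mouse 2, with means of 1.83 and 57.1 RPKM. Irf7, which amplifies that response, was expressed in 1.28% and 15.3%. The 5 named are members of a list chosen with results of these data known, and the difference between the MUL mice was not tested, since each is 1 clone.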
